A study of Mus musculus and Acomys cahirinus with 18 samples.

Results

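The response of the mouse kidney 5 days after ureteral obstruction was read from all 5365 entries of the table in which the day 5 group was compared with sham, out of 13545 entries in the 4 tables of the series. Of these, 3269 rose (60.9%) and 2096 fell (39.1%). The entries fell into 1996 that were not listed on day 2 (37.2%), called late genes here, and 3369 listed on both days. A late gene is only one that did not reach the authors' threshold on day 2: it may have been unchanged then, too variable to pass or not tested.

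Whole kidneys of adult male wild-type C57BL/6J mice, labelled C57BL/6 in the sample records, were sequenced as total RNA. The day 5 group held 3 libraries from mice whose left ureter had been obstructed (unilateral ureteral obstruction, UUO), aged 10.1, 10.1 and 14.0 weeks. The sham group held 3 libraries from operated mice without obstruction, aged 14.0, 7.0 and 9.4 weeks, and the same sham libraries served the day 2 comparison, whose UUO mice were 10.1 weeks old. The labels elsewhere give the animals as 10 weeks old or as 2 to 4 months old, and 1 sham mouse at 7.0 weeks was younger than either. Mice were perfused with cold saline and the kidneys snap frozen. The same design was run in Acomys cahirinus, the spiny mouse, with its own sham group. The labels do not say that each library came from another animal, so the authors' p-values measure the spread between these samples, which may be partly technical. The tables hold no value per library and no standard error. The depth of the libraries is unknown.

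Obstruction stops urine flow, and the pressure stretches and injures the tubules, which are rich in mitochondria and do most of the kidney's transport work. Injured tubule cells are known to lose transporters and oxidative metabolism, while monocytes, dendritic cells and lymphocytes enter the tissue and stromal cells lay down matrix. Interferons, the signals of antiviral defence, switch on a shared set of genes through STAT and IRF transcription factors, and mitochondrial genes are known targets of the NRF1 and ERR factors.

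All fold changes below are the authors' log2 ratios of day 5 to sham, and FDR is their false discovery rate, under 0.05 for every entry. The late genes were mostly modest in size. The 1262 late genes that rose (38.6% of all risen) had a median of 1.48, or 2.80-fold, and 357 of them reached 2. The 734 late genes that fell (35.0% of all fallen) had a median of -1.01, or 2.01-fold, and 58 reached -2. Genes listed on both days had moved further by day 5, with medians of 2.20 for 2007 risen and -1.53 for 1362 fallen. The FDR was under 0.001 for 25.8% of late genes and for 70.9% of those listed on both days. These differences are in part built into the grouping. Genes listed on both days had to pass the threshold on day 2 as well, against the same sham libraries. In these bulk samples, fewer cells of a type and less RNA per cell cannot be told apart, and the same holds for more cells and more RNA.

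Late rises and late falls lay at different read abundance, as did rises and falls among genes listed on both days. The authors' logCPM, the log2 of mean CPM (reads scaled to library size), not corrected for transcript length, had a median of 1.92 over the late risen genes and 5.53 over the late fallen ones. Over genes listed on both days the medians were 3.29 for the risen and 5.13 for the fallen. Among entries with a logCPM of 0 to 3, 38.7% were late, and 82.8% of the late ones had risen, against 75.7% of all entries there. Between 6 and 9 the late share was 32.6%, and 17.5% of the late ones had risen, against 30.5% of all entries there. Below 0 the late share was 52.1%, and from 9 upward it was 26.5%. The smallest change listed on day 2 depended on abundance too, at 1.11 below a logCPM of 0 and 0.73 between 6 and 9.

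**Figure D1:**
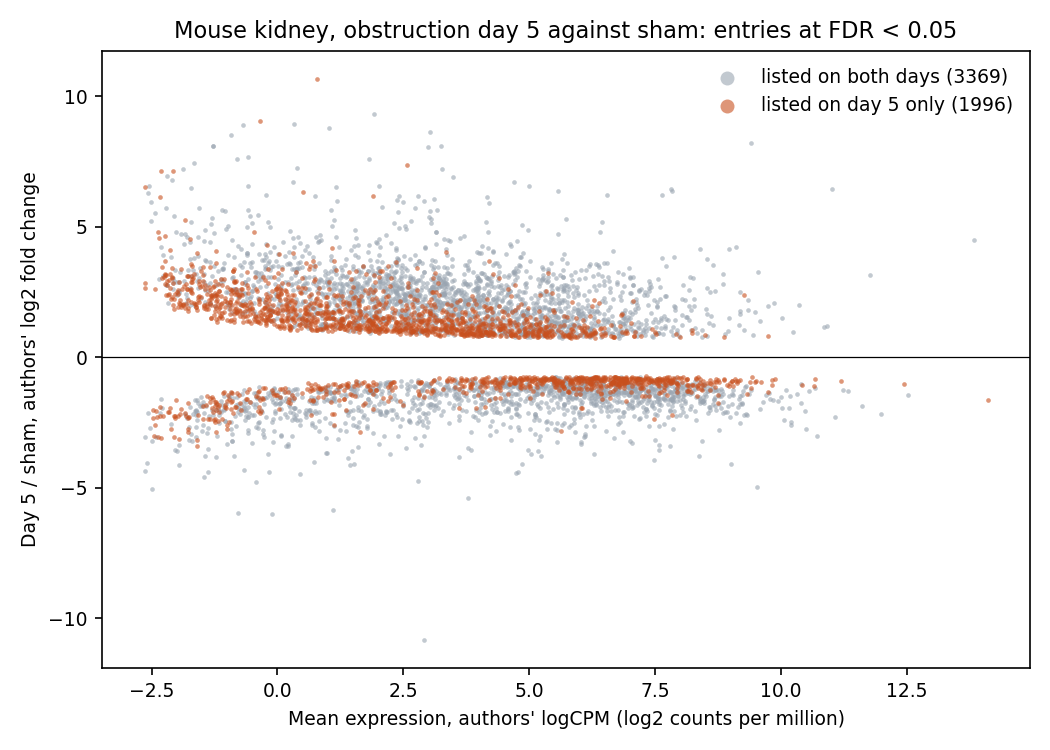
Each point is 1 entry of the mouse day 5 table, with the authors' logCPM (log2 of mean CPM) on the horizontal axis and the authors' log2 fold change of day 5 over sham on the vertical axis; orange marks the 1996 late entries and grey the 3369 listed on both days. Late points mostly lie closer to 0 than grey ones. In both groups rises lie mostly at lower logCPM than falls.

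The steepest late rises are given for standard gene symbols with a logCPM of at least 0. In the authors' deposited table Xirp2, an actin-binding repeat protein of striated muscle, rose by 10.67 (FDR 3.65e-05) at a logCPM of 0.79. Of the 34 striated muscle genes 4 rose (11.8%), no more than the 13.9% of RefSeq protein-coding genes that rose, and 29, among them Ttn, Ckm and Acta1, were not listed. Itih4, which encodes an acute-phase plasma protein, followed in the authors' deposited table at 6.19 (FDR 0.00190). Next in the authors' deposited table were Iqsec3 at 4.21 and the immunoglobulin joining chain gene Jchain at 4.03. The myeloid genes Ear2, an eosinophil-associated ribonuclease, Gpr34, a lysophospholipid receptor, and Ms4a4c stood at 4.01, 3.97 and 3.70 in the authors' deposited table. Ear2 has close paralogues, so its counts are uncertain. Mmp2, the gelatinase that cuts collagen IV, rose by 3.70 (FDR 6.20e-07) in the authors' deposited table, with Gjb5, a gap junction connexin, at 3.68.

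The standard late genes with the lowest FDR had different known roles. The first were, in the authors' deposited table, Colec12, a scavenger receptor of the collectin family, at 2.34 (FDR 1.13e-07), and Clca3a1 at 3.19 (FDR 1.22e-07). Pltp, the phospholipid transfer protein, had risen by 2.62 (FDR 1.36e-07) and Thbs2, a matricellular thrombospondin, by 3.05 (FDR 2.37e-07) in the authors' deposited table. The transcriptional regulator gene Lbh and the gene Islr2 rose by 1.95 and 3.67 in the authors' deposited table. Apoe, the lipid carrier that macrophages also secrete, is not among these 8 but was late as well and rose by 2.41 (FDR 9.04e-06) in the authors' deposited table.

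By the same rule the steepest late falls included a proximal tubule transporter, a deiodinase and 2 receptors. Slc5a12, a sodium-coupled lactate transporter of the proximal tubule, fell by 2.37 (FDR 2.83e-05) in the authors' deposited table. Dio1, a deiodinase that can activate thyroid hormone, fell by 1.95 in the authors' deposited table, whereas the other deiodinase genes rose late, Dio2 by 3.32 and Dio3 by 1.52. Tfrc, the transferrin receptor, fell by 1.96 in the authors' deposited table. Prlr, the prolactin receptor, stood at -1.92 there, close to the limit (authors' deposited table, FDR 0.0493).

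The 8 standard late genes with the most reads all fell. They began with Gpx3, the secreted glutathione peroxidase made by the proximal tubule, which fell by 1.65 (FDR 9.03e-06) at a logCPM of 14.11 in the authors' deposited table. Gpx1, a cytosolic glutathione peroxidase, fell by 0.82 and Selenop, a selenium carrier of plasma, by 1.12 in the authors' deposited table. Timp3, a matrix-bound inhibitor of metalloproteinases, fell by 1.06 in the authors' deposited table while Mmp2 rose.

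**Figure D2:**
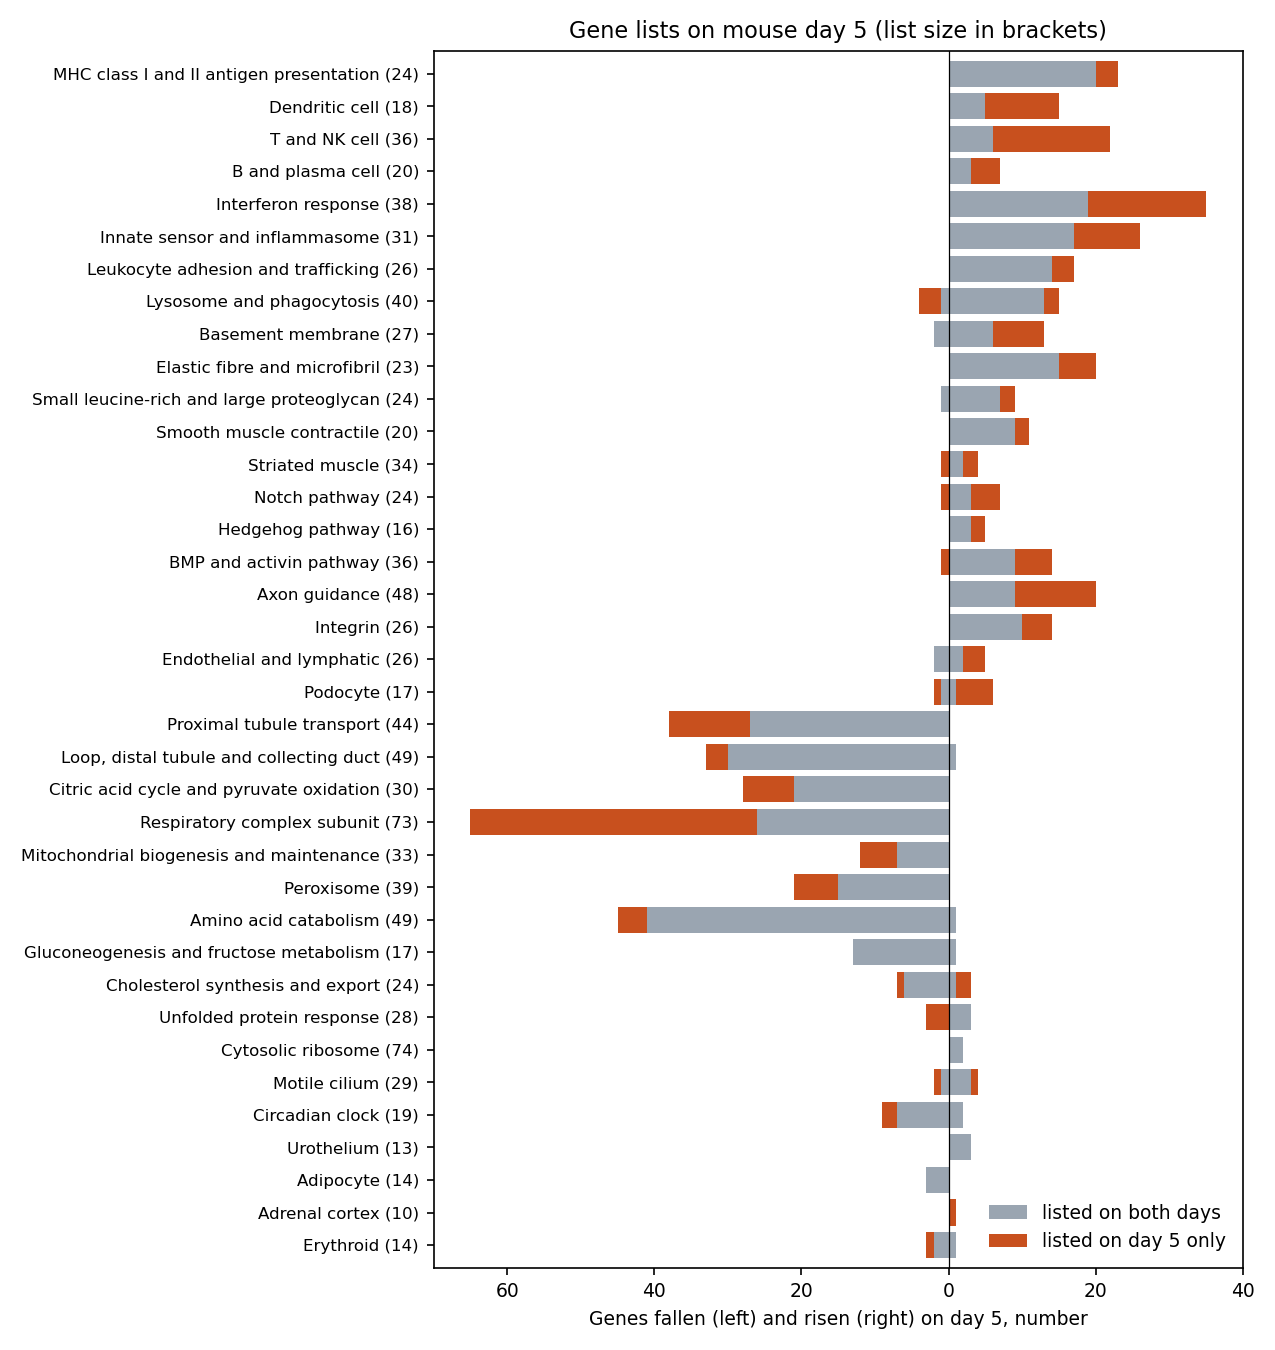
Bars give the number of genes of each of 37 lists that fell (left) or rose (right) on mouse day 5, with list sizes in brackets, grey for genes listed on both days and orange for late genes. The longest orange bars are 39 respiratory complex genes on the left and 16 T and NK cell and 16 interferon genes on the right.

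Genes of dendritic, T and NK cells rose, most of those listed being late. The background is that 13.9% of 21900 RefSeq protein-coding genes rose on day 5 and 7.76% fell, and that 38.6% of risen entries were late. The number of genes the authors tested is not known, so RefSeq genes stand in for it. Of 18 dendritic cell genes 15 rose and 3 were not listed, with 10 late and a median of 2.35, against 1.89 over all risen entries. Of 36 T and NK cell genes 22 rose, 16 of them late, with a median of 1.97. Of 20 B and plasma cell genes 7 rose, 4 of them late, with a median of 2.66. No member of these lists fell. Some dendritic cell genes, such as Itgax, Cd86 and Cd40, are also expressed by macrophages. The macrophage markers Adgre1 and Cd68 were listed on both days and stood at 3.61 and 2.98 on day 5 in the authors' deposited table. Their part in the dendritic cell values was not tested.

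Dendritic cell genes covered maturation, costimulation and lineage. In the authors' deposited table Cd83, a maturation marker, rose by 3.41 (FDR 1.07e-06), and Ccr7, the receptor that guides dendritic cells to lymph nodes, by 2.66 (FDR 0.00126). Cd86, a costimulatory ligand for T cells, rose by 2.35 and its relative Cd80 by 1.30 in the authors' deposited table. The lineage factors Batf3 and Zbtb46 were at 1.62 and 1.07 in the authors' deposited table, and Flt3, the receptor for the dendritic growth factor, at 1.95. Irf4 was listed on both days and stood at 3.04 on day 2 and 4.31 on day 5 in the authors' deposited tables. Xcr1 and Clec9a, which define cross-presenting dendritic cells, were not listed.

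The T cell receptor complex was largely late. In the authors' deposited table its signalling chains Cd3e, Cd3g and Cd247 rose by 2.57, 1.76 and 1.25, and only Cd3d (1.35) had been listed on day 2. The coreceptor genes Cd4 and Cd8b1 rose by 2.15 and 1.73 in the authors' deposited table, whereas Cd8a was not listed. The proximal kinase Zap70 was late at 1.76 in the authors' deposited table, and Lck had been listed on both days, at 1.79 and then 2.58. Cxcr3, the receptor for the interferon-induced chemokines, rose by 2.64 (FDR 0.000215) in the authors' deposited table. The effector genes Gzma, Gzmb, Prf1 and Ifng and the regulatory T cell factor Foxp3 were not listed. The late T and NK genes lay low in read abundance, from Klrb1c at a logCPM of -1.61 to Il2rb at 1.47 by the authors' deposited table. Their median logCPM was 0.17. Over the whole table the late share was 52.1% below a logCPM of 0 and 38.7% between 0 and 3.

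In the B and plasma cell list the steepest member was Jchain, the chain that joins secreted IgA and IgM, at 4.03 in the authors' deposited table (FDR 0.0143). The B cell genes Bank1 and Cd79b were late at 2.30 and 1.21 in the authors' deposited table. The defining B cell genes Ms4a1 and Cd79a and the plasma cell gene Mzb1 were not listed. Spib (3.66) and Tnfrsf13b (2.86) had been listed on both days in the authors' deposited tables, and both are also expressed outside B cells.

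**Figure D3:**
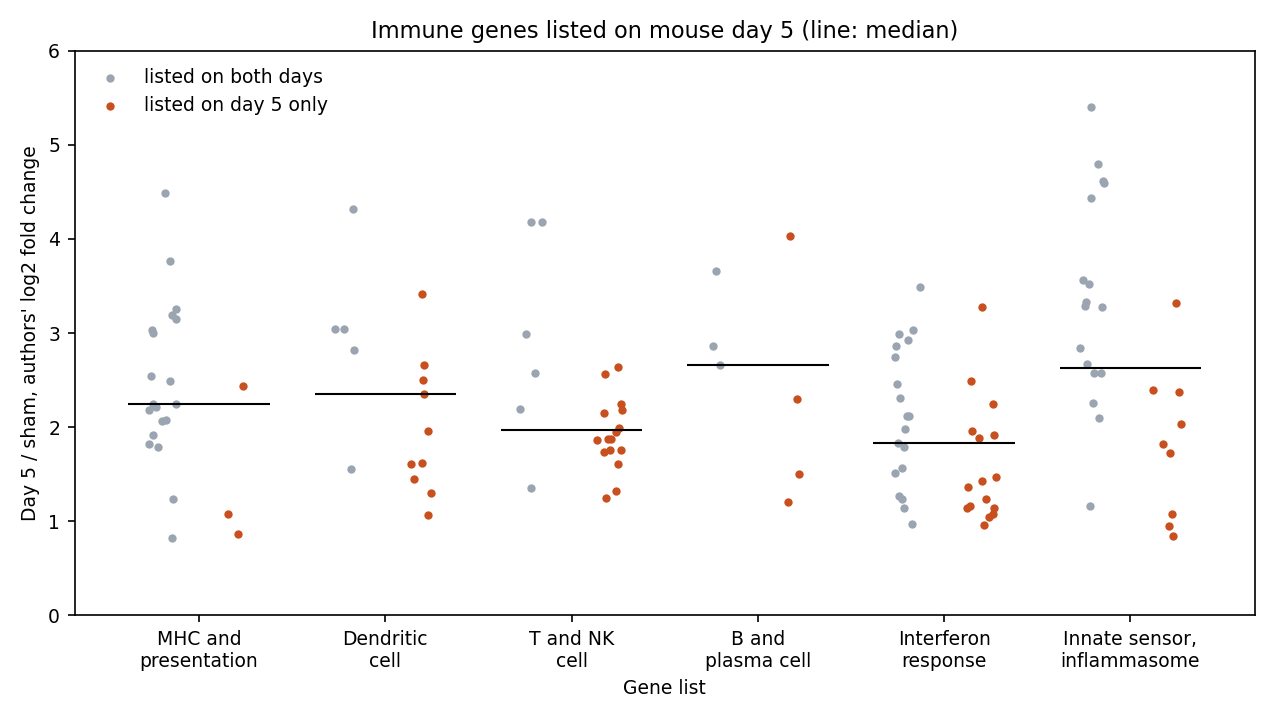
Each point is 1 gene of 6 immune lists on mouse day 5, with the authors' log2 fold change over sham on the vertical axis; orange points are late, grey points were listed on both days, and black lines are list medians. In the T and NK cell list 16 of 22 points are orange, in the MHC list 3 of 23.

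Interferon-response genes made up the largest immune group, with 35 of 38 risen, 0 fallen and 16 late (median 1.83). Signal transducers were late: Stat2, which carries the interferon signal to the nucleus, rose by 1.17 in the authors' deposited table, and Irf7, the amplifier of type I interferon, by 1.88. The partner of Stat2, Irf9, had been listed on both days and stood at 1.52 on day 5 in the authors' deposited tables. Effectors were mixed. Those listed on both days included Oas1a (2.75), Oasl1 (2.46) and Mx1 (3.03) in the authors' deposited table. Late ones included Oas3 at 3.28 (FDR 1.38e-05), Oas2 at 2.49 and Oasl2 at 2.24 in the authors' deposited table. The RNA sensor Ifih1 was at 0.96 in the authors' deposited table, and the RNA-binding Ifit1 and Ifit3 at 1.24 and 1.08. The chemokine gene Cxcl9 rose late by 1.96 in the authors' deposited table, while the related Cxcl10 was listed on both days, at 3.78 and 3.49. Rsad2, Ifi44 and Trim25 were not listed.

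The core of the IRF binding element, GAAANNGAA, was searched on both strands of the RefSeq promoters, from 250 bases before to 50 bases after the gene start. It was present for 7 of the 11 late interferon genes that had a promoter in the table (63.6%), namely Ifih1, Igtp, Ifit3, Stat2, Ifit1, Cxcl9 and Oas3. It was present for 10 of 15 listed on both days (66.7%) and for 9.76% of all 27025 genes with a promoter. A match describes the letters of the window and is not evidence of binding. The 2 late holders with the largest fold changes are shown to place the element, on GRCm38.p6 at chr5:120777610-120777909 (minus strand) for Oas3 and chr5:92328030-92328329 (minus strand) for Cxcl9. Capitals mark the matches, which in Oas3 are 2 that overlap and start at -75 and -69 from the gene start, and in Cxcl9 is 1 at -175.
Oas3: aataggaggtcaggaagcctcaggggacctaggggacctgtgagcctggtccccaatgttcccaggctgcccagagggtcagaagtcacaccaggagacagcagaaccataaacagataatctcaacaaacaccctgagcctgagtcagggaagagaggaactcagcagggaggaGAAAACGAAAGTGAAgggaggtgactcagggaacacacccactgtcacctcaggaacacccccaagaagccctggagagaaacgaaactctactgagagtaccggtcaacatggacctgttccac
Cxcl9: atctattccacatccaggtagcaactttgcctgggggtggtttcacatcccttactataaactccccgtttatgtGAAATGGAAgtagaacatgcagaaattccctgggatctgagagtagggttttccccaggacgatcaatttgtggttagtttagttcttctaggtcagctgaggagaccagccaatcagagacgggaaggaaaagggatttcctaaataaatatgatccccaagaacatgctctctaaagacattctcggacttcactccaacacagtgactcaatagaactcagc

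Antigen presentation, in contrast, was mostly listed by day 2. Of 24 genes 23 rose, 3 of them late (median 2.24): the class II modulators H2-Oa (2.44) and H2-Ob (1.08) and the proteasome activator Psme1 (0.87), by the authors' deposited table. The class II chain genes were further from sham on day 5 than on day 2 in the authors' deposited tables, H2-Ab1 at 1.90 and then 3.19 and H2-Eb1 at 1.26 and then 3.03. The difference between days was not tested.

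Innate sensors rose with 26 of 31 listed, 0 fallen and 9 late (median 2.62). Late receptors were, by the authors' deposited table, Tlr9 (3.32), which senses DNA in endosomes, Tlr6 (2.39), Tlr5 (2.04), Tlr7 (1.83) and Tlr4 (1.72), the receptor for bacterial lipopolysaccharide. The inflammasome genes Aim2, a DNA sensor, and Pycard, the adaptor, were late at 2.38 and 0.95 in the authors' deposited table, and the cytokine Il18 was at 1.07. Nlrp3 was listed on both days at 2.71 and 3.32 in the authors' deposited tables. Tlr8 stood at 1.93 and then 4.62 in the authors' deposited tables. Clec4e, a sensor of dead cells, stood at 7.10 on day 2 and 5.41 on day 5 in the authors' deposited tables.

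Of the 26 genes of leukocyte adhesion 17 rose, 3 of them late, among them Itgal, the integrin chain of LFA-1, at 1.68 and Cxcr4 at 1.10 in the authors' deposited table. The endothelial and tubular adhesion gene Vcam1 was listed on both days, at 4.96 and 6.45 in the authors' deposited tables. Lysosomal genes split, with 15 risen and 4 fallen of 40. Ctsk, the collagen-degrading cathepsin, rose late by 2.50 in the authors' deposited table, while Lipa, the acid lipase, Neu1 and Lamp2, a lysosomal membrane protein, fell late by 1.06, 0.92 and 0.82.

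Matrix genes outside the fibrillar collagens were partly late. Of 27 basement membrane genes 13 rose and 2 fell, with 7 risen late (median 1.52). The late ones in the authors' deposited table included Frem1 at 2.83 (FDR 8.54e-07), Nid1, nidogen, which links laminin to collagen IV, at 2.19 and the laminin chain Lamb3 at 1.55. The laminin chains Lama2, Lama4 and Lama5 rose late by 1.52, 1.27 and 1.06 in the authors' deposited table, and the perlecan gene Hspg2 by 0.96. Collagen IV genes differed by chain. Col4a1 and Col4a2, the common pair, rose by 2.08 and 1.81 in the authors' deposited table, and Col4a3 and Col4a4, of the mature glomerular and tubular membrane, fell by 1.59 and 1.37.

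Elastic fibre genes rose with 20 of 23 listed, 0 fallen and 5 late (median 2.61). Late members were, by the authors' deposited table, Mfap4 (3.23), a microfibril protein, Fbln1 (1.90), elastin itself, Eln (1.27), Ltbp3 (1.12) and Fbln5 (1.09). The crosslinking enzyme Lox was listed on both days, at 2.69 and 4.26 in the authors' deposited tables, and the fibrillin Fbn2 at 2.88 and 5.73. Of 24 proteoglycan genes 9 rose and 1 fell. The collagen-binding leucine-rich proteoglycans Lum and Dcn were late at 2.46 and 1.28 in the authors' deposited table. Has2, the main hyaluronan synthase, stood at 7.66 and then 7.67 in the authors' deposited tables.

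Contractile genes of smooth muscle were mostly listed by day 2, with 11 of 20 risen, 2 of them late. Those were Actg2, enteric smooth muscle actin, at 3.18 and the myosin light chain Myl9 at 1.11 in the authors' deposited table. The mature smooth muscle genes Myh11, Cnn1 and Myocd were not listed. Integrins rose with 14 of 26 listed and 4 late, among them Itga11, a collagen receptor of fibroblasts, at 2.56 and Itgb1, the shared beta chain, at 0.87 in the authors' deposited table.

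Signalling genes of development were partly late. In the Notch pathway 7 of 24 rose and 1 fell: the receptors Notch1 (1.08) and Notch3 (1.05), the feedback gene Nrarp (0.90) and the fringe enzyme Mfng (1.12) rose late in the authors' deposited table, and the fringe enzyme Rfng fell late by 0.95. The Notch ligand genes Jag1, Jag2, Dll1 and Dll4 and the targets Hes1 and Hey1 were not listed. In the hedgehog pathway 5 of 16 rose, with the transcription factor Gli3 late at 2.02 in the authors' deposited table and the target gene Gli1 listed on both days at 2.11 and 2.80.

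Of 36 BMP and activin genes 14 rose and 1 fell. The secreted BMP antagonist Grem1 rose late by 3.03 at a logCPM of -1.67, and the ligand Bmp2 by 1.13, in the authors' deposited table. Bmp7, a ligand made by tubules and known for opposing fibrosis, was the 1 that fell, by 1.19 (FDR 0.000529) in the authors' deposited table. The type I receptor genes Acvrl1 and Acvr1 rose late by 0.87 and 0.88 in the authors' deposited table.

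Axon guidance genes, which also steer vessels and immune cells, held 20 risen of 48 and 0 fallen, with 11 late (median 1.55). Receptors among the late ones were Epha3 (2.86), the slit receptor Robo1 (1.90), the semaphorin receptor Plxnd1 (1.64) and the neuropilins Nrp2 (1.25) and Nrp1 (0.81) in the authors' deposited table. Ligands were Efna2 (2.08), Sema3d (1.45), Efnb2 (1.32), Sema5a (1.24) and Efna5 (0.89) in the authors' deposited table. The slit ligand Slit3 had been listed on both days, at 1.30 and 2.73 in the authors' deposited tables.

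Vessel genes were mostly not listed, and the podocyte list held rises and falls. Of 26 endothelial and lymphatic genes 5 rose (19.2%), 2 fell (7.69%, near the 7.76% of RefSeq genes) and 19 were not listed, among them Pecam1, Kdr and Tek. The junction gene Cdh5, VE-cadherin, rose late by 0.95 and the transcription factor gene Sox18 by 1.09 in the authors' deposited table. Of 17 podocyte genes 6 rose (35.3%, against 13.9% of RefSeq genes) and 2 fell (11.8%, against 7.76%). The slit diaphragm gene Nphs1 was not listed. The late rises included Tcf21 (1.81), Foxc2 (1.55) and Ctgf (1.22) in the authors' deposited table. These are also expressed outside podocytes, as Tcf21 is in kidney stroma.

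Listed transport genes of the nephron fell, with the calcium channel gene Trpv5 as the 1 exception. In the proximal tubule list 38 of 44 genes fell and 0 rose, with 11 late (median -1.66, against -1.34 over all fallen entries). Late falls in the authors' deposited table were the basolateral glucose transporter Slc2a2 (-1.55), the amino acid exchangers Slc7a8 (-1.49), Slc7a9 (-1.42) and Slc7a7 (-1.28), and the bicarbonate cotransporter Slc4a4 (-1.41). The urate and phosphate transporter Slc17a1 fell late by 1.22 in the authors' deposited table. A transcription factor that sets proximal tubule identity was late too: Hnf4a fell by 1.34 (FDR 5.41e-05) in the authors' deposited table.

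Several proximal transporters listed on both days stood nearer to sham on day 5. Slc7a13 was at -4.27 on day 2 and -2.40 on day 5 in the authors' deposited tables, and Slco1a1 at -3.12 and then -1.90. Others stood further away, as Slc6a19, the neutral amino acid transporter, did at -1.95 and then -3.20 in the authors' deposited tables. The list as a whole had medians of -1.58 on day 2 and -1.80 on day 5 over its 27 members on both days. Of the 49 genes of the later nephron segments 33 fell and 1 rose, with 3 late. Those were the proton pump subunits Atp6v0a4 (-1.44) and Atp6v1g3 (-1.08) of intercalated cells and the vasopressin receptor Avpr2 (-0.93) in the authors' deposited table. The water channel gene Aqp2 and the sodium channel gene Scnn1g were not listed.

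Subunits of the respiratory complexes formed the largest late group of any list. Of 73 nuclear genes 65 fell, 0 rose and 8 were not listed, with 39 late, 60.0% of the listed members against 35.0% of all fallen entries. Complex I fell with 30 of 37 subunits (median -0.97, 18 late), complex III with 9 of 9 (median -1.09, 5 late), complex IV with 11 of 11 (median -0.95, 7 late) and complex V, the ATP synthase, with 14 of 15 (median -1.04, 9 late). The values ran from -0.75 for Ndufs4 to -1.44 for Ndufs1, with Cox7a1 lower at -1.83, in the authors' deposited table.

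In the authors' deposited table the late falls ran from Atp5k, an ATP synthase subunit, at -1.18 (FDR 0.00305), Cyc1, cytochrome c1, at -1.09 and Ndufv1, which holds the NADH site of complex I, at -1.06 to Ndufs4 at -0.75 (FDR 0.0196). Cox4i1, a nuclear subunit of complex IV, fell by 0.77 (FDR 0.0383) in the authors' deposited table. Members listed on both days were at a median of -0.91 on day 2 and -1.18 on day 5, and late members at -0.93 on day 5. The smallest change listed on day 2 at comparable read abundance was 0.73, which is not a detection limit, as larger changes may also have gone unlisted. Whether the late members had already changed on day 2 was not tested. Cox7a1, the lowest member, is abundant in muscle and brown fat, and the brown fat genes Ucp1 (-5.84) and Cidea (-4.46) fell too in the authors' deposited table, while Adipoq and Plin1 were not listed. The part of fat in the Cox7a1 value was not tested.

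**Figure D4:**
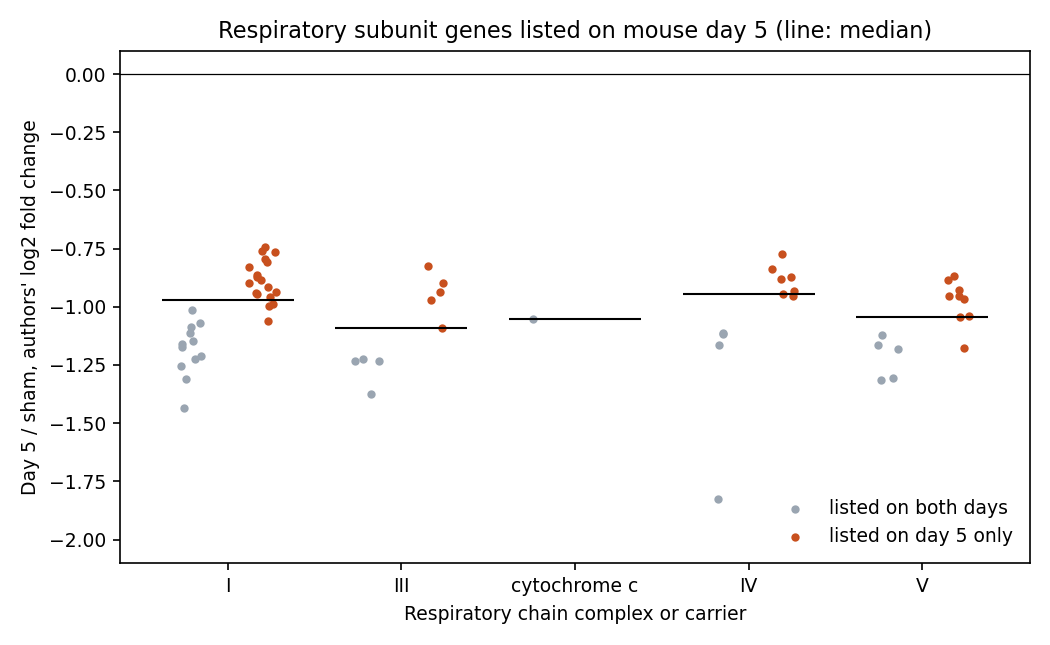
Each point is 1 respiratory subunit gene listed on mouse day 5, grouped by complex, with the authors' log2 fold change over sham on the vertical axis; orange points are late, grey points were listed on both days and black lines are medians. All points lie below 0, the medians lie between -0.95 and -1.09, and most orange points lie nearer to 0 than the grey ones.

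Regulators of mitochondria fell with 12 of 33 listed and 5 late. Esrra, the ERR-alpha receptor, was listed on both days, at -0.87 and -1.21 in the authors' deposited tables, and the coactivator Ppargc1a at -1.05 and -1.10. The second coactivator Ppargc1b fell late by 1.04 in the authors' deposited table, as did the fusion genes Opa1 (-0.97) and Mfn2 (-0.96). Nrf1 and the mitochondrial transcription factor Tfam were not listed.

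The NRF1 core GCGCATGC and the ERR element TCAAGGTCA were searched on both strands of the same RefSeq windows, for the respiratory and citric acid cycle genes together. The NRF1 core was present for 5 of 40 late genes with a promoter (12.5%), Atp5k, Atp5l, Ndufa8, Cox6a1 and Ndufa6, for 5 of 40 listed on both days (12.5%) and for 3.05% of all genes. The ERR element was present for 1 of 40 late genes (2.50%), 1 of 40 listed on both days (2.50%) and 0.466% of all genes. The late holder with the largest fall is shown for each motif, on GRCm38.p6 at chr5:108434350-108434649 (minus strand) for Atp5k and chr2:73911277-73911576 (minus strand) for Atp5g3. Capitals mark 2 overlapping NRF1 cores in Atp5k, from -50, and the ERR element of Atp5g3 on the opposite strand, at -52.
Atp5k: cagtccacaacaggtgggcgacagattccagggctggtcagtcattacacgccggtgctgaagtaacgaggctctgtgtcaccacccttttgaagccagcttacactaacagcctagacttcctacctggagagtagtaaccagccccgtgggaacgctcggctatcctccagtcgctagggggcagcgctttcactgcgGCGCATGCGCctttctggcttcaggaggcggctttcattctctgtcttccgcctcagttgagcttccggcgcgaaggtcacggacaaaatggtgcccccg
Atp5g3: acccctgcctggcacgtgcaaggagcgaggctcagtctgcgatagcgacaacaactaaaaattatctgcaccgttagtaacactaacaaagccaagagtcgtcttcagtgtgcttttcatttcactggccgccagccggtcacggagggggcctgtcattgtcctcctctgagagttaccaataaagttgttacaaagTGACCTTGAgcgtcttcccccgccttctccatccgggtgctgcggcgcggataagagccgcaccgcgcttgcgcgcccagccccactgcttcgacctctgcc

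Fuel pathways that feed the respiratory chain had mostly been listed by day 2. Citric acid cycle and pyruvate oxidation genes fell with 28 of 30, 7 of them late (median -1.19): Suclg2 (-1.30), Suclg1 (-1.25), Idh3g (-1.06), Mdh2 (-0.88), Idh3a (-0.84), Pdk3 (-0.82) and Pdhx (-0.81) in the authors' deposited table. Suclg1 and Suclg2 encode the GDP-forming succinyl-CoA ligase. Citrate synthase, Cs, was not listed.

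Amino acid catabolism had 45 of 49 fallen and 1 risen, with 4 late (median -1.60). The steepest was Hpd, of tyrosine breakdown, at -4.26 on day 2 and -3.57 on day 5 in the authors' deposited tables. Gatm, the first enzyme of creatine synthesis, was at -2.46 and then -3.22 in the authors' deposited tables. The late falls were Asl, of the urea cycle, at -1.35, Kynu (-1.29), Pccb (-1.07) and Got2 (-0.98) in the authors' deposited table. The mitochondrial arginase gene Arg2 was the 1 that rose, by 3.08 in the authors' deposited table.

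Gluconeogenesis and fructose metabolism held 13 fallen of 17, 1 risen and 0 late (median -1.91). Glucose-6-phosphatase, G6pc, which releases glucose from the cell, was at -3.34 and -3.38 in the authors' deposited tables. Mitochondrial Pck2 rose by 1.24 in the authors' deposited table, and cytosolic Pck1 fell by 2.48. Peroxisome genes fell with 21 of 39 listed and 6 late (median -1.31). They included the lipid receptor Ppara at -1.83 and catalase, Cat, at -1.58, and late Dao (-1.31), a D-amino acid oxidase, in the authors' deposited table. The import and assembly genes were mostly not listed, with Pex7 (-1.01) and Pex11a (-1.10) as exceptions in the authors' deposited table.

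Stress, sterol and clock genes gave smaller groups. Of 28 unfolded protein response genes 3 rose and 3 fell (10.7% each), shares near those of all RefSeq genes (13.9% and 7.76%). Herpud1, Dnajc3 and Edem1, of protein quality control in the endoplasmic reticulum, fell late by 1.35, 0.82 and 0.74 in the authors' deposited table. The stress genes Atf3, Trib3 and Chac1 were lower on day 5 than on day 2 in the authors' deposited tables, at 5.33 and then 4.34, 3.58 and then 2.53, and 3.69 and then 1.66. Hspa5, Ddit3 and Xbp1 were not listed.

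Cholesterol synthesis genes fell and exporters rose, with 7 fallen and 3 risen of 24. Cyp51 fell by 2.04 and the late Lss by 0.88, while the exporters Abca1 and Abcg1 rose by 1.68 and 0.97, in the authors' deposited table. Of 19 clock genes 9 fell and 2 rose. The period gene Per2 and the repressor Nr1d2 fell late by 1.63 and 1.11 in the authors' deposited table. The clock output gene Dbp was at -1.75 on day 2 and -2.95 on day 5 in the authors' deposited tables, whereas the repressors Nfil3 and Bhlhe40 were at 1.79 and 1.14 on day 5. The core factors Arntl and Clock were not listed. Of 74 cytosolic ribosomal protein genes 72 were not listed, and Rpl12 and Rps16 rose by 1.07 and 0.79 in the authors' deposited table. Of 29 motile cilium genes 4 rose (13.8%) and 2 fell (6.90%), near the shares of all RefSeq genes, with the ciliation factor Foxj1 at 3.50 and then 4.57 in the authors' deposited tables.

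Among genes listed on both days, some stood much further from sham on day 5. Besides Tlr8 and Fbn2, these included Siglec1, the macrophage sialoadhesin, at 1.71 and then 5.21, and Nkd2, a Wnt antagonist, at 1.62 and then 4.23 in the authors' deposited tables. Ccdc33 was at 4.25 and then 7.24 in the authors' deposited tables. Those that stood nearer to sham included the fibrinogen chain gene Fgg at 6.76 and then 4.16, and the chemokine gene Ccl20 at 6.04 and then 4.10, in the authors' deposited tables. Tnn, a tenascin, was at -4.92 and then -2.18 in the authors' deposited tables. Both days share the sham libraries, and the differences were not tested.

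The tissue matched its label. Kidney markers were listed with high read abundance, as Lrp2, the endocytic receptor of the proximal tubule, was at -2.05 with a logCPM of 10.49 in the authors' deposited table. Few markers of neighbouring tissues were listed. Of 13 urothelial genes 3 keratins rose and the uroplakins Upk1b and Upk3a were not listed, though Upk3a was listed on day 2. Of 14 adipocyte genes 3 fell (Ucp1, Cidea and Cox7a1, median -4.46) and 11 were not listed. Of 10 adrenal genes Mc2r rose, by 3.10 at a logCPM of -1.78 in the authors' deposited table, and 9, Star and Cyp11b1 among them, were not listed. Of 14 erythroid genes 1 rose and 3 fell, and the globin genes were not listed. Neutrophil genes S100a8 and S100a9 stood at 2.11 and 3.10 in the authors' deposited table.

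Acomys on day 5, compared with its own sham libraries, listed 180 of the 1262 late risen mouse genes by symbol (14.3%, or 12.8% of the 1406 Acomys symbols), 174 of them risen. Of the 2007 mouse genes risen on both days it listed 722 (36.0%, or 51.4% of its symbols). Of the 734 late fallen mouse genes it listed 14 (1.91%), of which 6 fell and 8 rose. Many Acomys entries carry no symbol, and the difference between species was not tested. Immune genes that were late in mouse and also listed in Acomys included Cd4, at 2.15 in mouse and 3.11 in Acomys, and Irf7, at 1.88 and 4.42, in the authors' deposited tables. The dendritic lectin gene Cd209a was at 2.50 in mouse and 4.77 in Acomys in the authors' deposited tables.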

How the data were processed

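RNA was measured by sequencing in 3 mouse day 5 and 3 mouse sham kidney libraries, grouped by the treatment label. Salmon, edgeR and the build mm9 are named in the submitters' processing notes, without versions. The authors deposited 4 tables of comparisons, which per the file headers give a log fold change, an FDR and a logCPM. Both fold change and logCPM of the authors were read as log2 values, as edgeR writes them; the deposited tables state no base. Their FDR, a p-value adjusted over genes, is under 0.05 in all deposited entries, so genes short of it have no value here. The logCPM was identical on both days for all 3369 shared entries.

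No test was run, because the tables hold no values per library. Entries were matched between days by Entrez ID and to Acomys by symbol, and counted by direction. Gene symbols of 37 lists (1099 different symbols) were matched to the tables or RefSeq, 5 entries through synonyms, and 1 (Ahsp) had no match. The members and lists were chosen with earlier results of these data known. Named genes were, among standard symbols, the 12 highest and 12 lowest late fold changes at a logCPM of at least 0, the 8 late genes with the lowest FDR and the 8 with the highest logCPM, up to 3 at each end of each list, the 8 largest differences between days in each direction, and cell type markers. Of these, only part is printed, and some genes under the rule are not reported here; other list members were named for their role after their values were seen. Promoters came from RefSeq on GRCm38.p6, a build other than the authors', and were used for sequence only. Counting and motif search were tested on simulated data. Python 3.11.15, pandas 2.3.3, numpy 2.4.6 and matplotlib 3.10.9 were used. Alternatives were a stricter FDR, a minimum fold change, a minimum logCPM, standard symbols only and matching by symbol.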

Additional observations from a re-analysis of the deposited data

How the results depend on the processing

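The total risen and fallen counts on day 5 stayed within 1.5 times at an FDR under 0.01, an absolute log2 fold change of at least 1, a logCPM of at least 0 and with standard symbols only. At an FDR under 0.001 both together numbered 2904 of 5365. The late counts moved more. At an FDR under 0.01 the late risen genes numbered 795 and the late fallen 408, and with an absolute log2 fold change of at least 1 the late fallen numbered 373. At an FDR under 0.001, an alternative chosen after seeing the data, they numbered 362 and 152. A stricter day 5 threshold leaves fewer entries by construction. A logCPM of at least 0, standard symbols only and matching by symbol left both late counts within 1.5 times. The median fold change of 36 lists kept its sign at an FDR under 0.01 and at a logCPM of at least 0. Where all listed members moved in the same direction, as in the T and NK cell and respiratory lists, the sign could not change. The adrenal list, with 1 entry, gave no value under either. In size 3 medians moved by over 1.5 times: at an FDR under 0.01 the unfolded protein response list from 0.46 to 2.53 and the BMP and activin list from 1.58 to 2.60, and at a logCPM of at least 0 the striated muscle list from 3.10 to 6.92. Of the 65 fallen respiratory subunit genes 54 were under an FDR of 0.01, 28 of them late. Of the 22 risen T and NK cell genes 14 were, 9 of them late. No paired analysis was possible because the tables hold no values per library, and no library could be left out for the same reason. Depth is unknown, so how far it limits the late calls at low abundance cannot be given.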

Other observations

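The clustered protocadherins, neuronal adhesion proteins encoded by tandem gene arrays, were counted as a family that was picked out after their values were seen. Of 22 RefSeq beta members 9 rose (40.9%, against 13.9% of RefSeq protein-coding genes), all of them late. Their median was 1.54, from 1.13 to 2.37, with an FDR of up to 0.0479. They lay at a low logCPM, from -1.56 to 1.28. The late share of all entries was 52.1% below a logCPM of 0 and 38.7% between 0 and 3. Of the gamma members 6 of 12 in subfamily a, 3 of 6 in subfamily b and 2 of 3 in subfamily c rose. These were also all late, with an FDR of up to 0.0488 in subfamily a and 0.0454 in subfamily b. Of the alpha members 1 of 12 rose late (8.33%, below the 13.9%). No clustered protocadherin was listed on mouse day 2 or under these symbols on Acomys day 5. The steepest beta member was Pcdhb15 at 2.37 (FDR 0.00257), and Pcdhgc3 was at 1.47 (FDR 7.51e-06), in the authors' deposited table. Gamma members share their last exons and beta members are close in sequence, so their counts are uncertain and the members are not independent.

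Mitochondrial ribosomal protein genes of the large subunit, also picked out after their values were seen, were listed with 6 of 49 (12.2%). All of these had fallen and were late (median -0.90), while 2 other members had been listed on mouse day 2 but not on day 5. Those of the small subunit were listed with 1 of 29 (3.45%), also fallen. Both shares were around the 7.76% of all RefSeq protein-coding genes that fell. Trim genes, many of which act in antiviral defence, were listed with 18 of 68, of which 17 rose (25%), 12 of them late, against 13.9% of RefSeq protein-coding genes. Of 397 zinc finger genes with the prefix Zfp 31 rose (7.81%), below that share.

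Among late genes 14 had opposite directions in mouse and Acomys on day 5, a difference that was not tested. They were 6 of the 180 late risen and 8 of the 14 late fallen mouse genes that Acomys listed. Osr1, a transcription factor of kidney development, was at -1.22 in mouse (FDR 0.0173) and 1.86 in Acomys in the authors' deposited tables. Apoa4, an apolipoprotein, was at -1.34 in mouse (FDR 0.0295) and 2.36 in Acomys in the authors' deposited tables. Penk, the enkephalin precursor, was at 2.34 in mouse (FDR 0.000453) and -2.00 in Acomys in the authors' deposited tables.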
